A study of Homo sapiens with 5 samples.

Results

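The genes described here code for the proteins of the cytosolic ribosome, in nuclei of 5 mixed lung adenocarcinoma cell lines. They were taken from the gene rows of the 80% portion by symbol: RPL or RPS, a number and at most an A, X, L or Y and a further digit, on an autosome or the X chromosome. Of 36601 genes, 82 had such a symbol and 80 were members, 49 of the large subunit (RPL) and 31 of the small subunit (RPS), since 2 on the Y chromosome were left out. The pattern takes in 7 paralogs, which are RPL3L, RPL7L1, RPL10L, RPL22L1, RPL26L1, RPL39L and RPS27L. It leaves out 6 genes whose products are ribosomal proteins under other names, among them RPLP0, RPLP1, RPLP2, RPSA and FAU.

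The established lines A549, H838, H1975, H2228 and HCC827 were grown separately in RPMI medium with fetal calf serum and antibiotics, with no drug and no engineered allele, per the labels. The labels also speak of freezing the cells, but not whether this holds for the cells mixed here, and the paper's methods name no such step. An equal number of cells of each line went into the mixture, from which nuclei were prepared and sorted. The nuclei were run through the 10× Multiome protocol, which reads RNA and open chromatin (ATAC) from 1 nucleus under 1 barcode. The droplets were split into an 80% and a 20% portion with 1 RNA and 1 ATAC library each. No difference was therefore tested between libraries. Intervals of medians below reflect the spread over nuclei of 1 library, and other intervals cover counting error only. None covers variation between libraries. The labels speak of 16000 nuclei captured and 9700 in total, and the matrices held 6557 barcodes in the 80% and 1286 in the 20% portion, at a median of 13306 and 10540.5 RNA molecules (UMIs) per nucleus, of which 159 barcodes were called in both.

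No cell line was assigned to a nucleus. The nuclei of the 80% portion were clustered by RNA after the members, the mitochondrial genes and the 6 ribosomal proteins under other names had been removed, so the members played no part in the clusters. The resolution was raised until there were 6 RNA clusters, a number set in advance, for 5 lines. They held 2470, 1465, 1459, 475, 361 and 327 nuclei and were numbered 0 to 5 by size. With 5 clusters asked for, clusters 3 and 4 were joined in 1 cluster of 836 nuclei. The gene with the largest excess over every other cluster, in CPM (UMIs of a gene scaled to the same total in each cluster), was MALAT1 in cluster 0 (38054 against at most 34724), LDHB in cluster 1 (3884 against 1353), ALDH1A1 in cluster 2 (5381 against 212), HSP90AA1 in cluster 3 (7796 against 4891), PVT1 in cluster 4 (2837 against 778) and EGFR in cluster 5 (7241 against 468). MALAT1 set cluster 0 apart only narrowly. The epithelial keratins KRT7, KRT8, KRT18 and KRT19 were counted in all clusters, at 105 to 5850.2 CPM. EPCAM was at 23.3 to 111 CPM in clusters 0, 1, 2 and 4 and at 678 and 765 CPM in clusters 3 and 5. CDH1, also epithelial, was low in the same clusters, at 11.6, 4.70, 46.2 and 7.59 CPM in clusters 0, 1, 2 and 4. In clusters 3 and 5 it was at 193 and 200 CPM. The leukocyte, endothelial and fibroblast genes PTPRC, CD3E, VWF, DCN and LUM were each below 1 CPM in every cluster, while the endothelial gene PECAM1 was at 1.36 to 14.7 CPM and the macrophage gene CD68 at 12.98 to 46.8 CPM.

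A ribosome holds 1 copy of nearly every one of these proteins, and cells make them in step from genes that are spread over the genome and are among the most transcribed. Most of their mRNAs begin with a C and an unbroken run of pyrimidines, the terminal oligopyrimidine (TOP) motif, through which the mTOR pathway and the protein LARP1 control their translation. The mRNAs work in the cytoplasm, so the counts in a nucleus come from new transcripts and from whatever cytoplasmic RNA is carried along.

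The start sites are shown because the run across the start is what most members share in sequence. Promoter windows of RefSeq on GRCh38.p14, with 250 bases before the start and 50 from it on, were matched by symbol for 63 of the 80 members (79 windows, since 11 members have more than 1 start). Of these members, 43 (68.3%) had a window with C as the first transcribed base and C or T for the first 5 bases, as against 5.00% of 27242 other genes. The count takes each listed start as exact to the base, so a run that begins just after it is not counted. Each line below runs from 40 bases before the start to 20 bases from it on, 5′ to 3′ on the gene's strand, and capitals mark an unbroken run of C and T across the start, where the first base is C and the run has at least 5 bases from there on. Of several listed starts the 1 with the longest run is shown, so the choice favours the run.
RPS16 (chr19:39435930-39435989, - strand): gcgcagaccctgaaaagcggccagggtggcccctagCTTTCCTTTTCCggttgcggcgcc
RPS19 (chr19:41860215-41860274, + strand): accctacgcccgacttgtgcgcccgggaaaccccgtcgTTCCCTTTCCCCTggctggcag
RPL13A (chr19:49487568-49487627, + strand): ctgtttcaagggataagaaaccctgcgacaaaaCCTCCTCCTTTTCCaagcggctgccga
RPL28 (chr19:55385892-55385951, + strand): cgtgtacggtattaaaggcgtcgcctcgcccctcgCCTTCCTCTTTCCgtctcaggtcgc
RPS28 (chr19:8321456-8321515, + strand): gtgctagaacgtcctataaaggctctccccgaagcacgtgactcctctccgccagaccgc
RPL26 (chr17:8383174-8383233, - strand): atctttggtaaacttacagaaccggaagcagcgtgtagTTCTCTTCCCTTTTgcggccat
RPL41 (chr12:56116593-56116652, + strand): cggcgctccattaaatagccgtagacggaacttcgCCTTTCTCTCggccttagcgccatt
RPS6 (chr9:19380217-19380276, - strand): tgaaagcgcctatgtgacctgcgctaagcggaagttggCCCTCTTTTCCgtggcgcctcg
RPL10 (chrX:154398337-154398396, + strand): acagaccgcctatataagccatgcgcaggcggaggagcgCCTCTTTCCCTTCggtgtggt
RPS4X (chrX:72277229-72277288, - strand): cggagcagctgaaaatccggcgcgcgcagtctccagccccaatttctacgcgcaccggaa
RPL22L1 (chr3:170870176-170870235, - strand): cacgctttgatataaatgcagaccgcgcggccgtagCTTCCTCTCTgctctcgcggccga
RPS27L (chr15:63157458-63157517, - strand): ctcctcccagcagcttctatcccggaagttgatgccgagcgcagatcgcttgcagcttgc
RPL7L1 (chr6:42879576-42879635, + strand): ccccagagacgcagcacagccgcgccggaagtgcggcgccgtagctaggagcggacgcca
RPS16, RPS19, RPL28, RPL26 and RPL10 carry the run at the start shown and are among the members whose counts differed most between clusters. RPS19 has 2 listed starts and RPL10 has 3, and their starts not shown have no run by this rule. RPL41 is among the most counted members, RPS6 is the ribosomal protein phosphorylated downstream of mTOR, and RPL13A lies on chromosome 19, which holds the most members (12 of 80). RPS28 and RPS4X, which varied too, have A at the listed start and so no run by this rule. In RPS28 an unbroken run of C and T begins at the very next base. Of the paralogs shown, RPL22L1 has the run, while RPS27L and RPL7L1 start with G and have none.

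Further letters were searched in the 300-base windows on both strands, with overlaps between motifs kept. CCGGAAG, the core of an ETS factor site, stood in 34.2% of the 79 member windows and in 10.2% of 35037 windows of other genes. ATGGCGG, the core of a YY1 site, stood in 19.0% and 5.52%, and TGACG, part of a cyclic AMP response element, in 43.0% and 24.5%. GGGCGG, an Sp1 site, was found in 54.4% and 44.9%, and TATAAA in 7.59% and 11.5%. These shares describe the letters only. The median GC content was 59.3% in member windows and 58.7% in the others.

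Members took 10.1% of all RNA molecules in the 80% matrix, 9674916 of 95455518 UMIs (95% binomial interval 10.13 to 10.14%). In the 20% matrix they took 9.90%, 1420016 of 14346346 UMIs. Per nucleus the median share was 10.2% (order-statistic interval 10.1 to 10.2%), and 5% of nuclei lay below 7.32% and 5% above 14.0%, with 3.32% and 28.4% as the extremes. The spread over nuclei (SD 2.18 percentage points) was 7.70 times what sampling of UMIs alone would give. A median nucleus held 1328 member UMIs.

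The counts were spread over many members. The 5 with the most UMIs were RPS2 (296800), RPL10 (259748), RPL41 (243350), RPL13 (225649) and RPS18 (213280), which together held 12.8% of the members' UMIs. The UMIs were counted at transcript ends and not divided by length, so this is an order of counts and not of transcript levels. RPS2 and RPS18 are proteins of the small subunit, and RPL10, RPL13 and RPL41 belong to the large subunit. The 7 paralogs had the fewest UMIs: RPL22L1 had 20988, RPS27L 18273, RPL7L1 13525, RPL26L1 11183, RPL39L 2387, RPL3L 42 and RPL10L 1. Of the other members RPS10 had the fewest, 36122. Ribosomal protein genes have many processed pseudogenes and near-identical copies, and the sources used here do not say how reads that match several genes were counted, so levels of single members and of paralog pairs are uncertain to that extent. RPL3L, known from muscle, and RPL10L, known from testis, lay below the mean of 10 CPM that a gene had to reach to be compared, which left 78 members among 10581 genes. Over members, CPM in the 2 portions had a Spearman rho of 0.974.

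The share of ribosomal protein RNA was lowest in cluster 0, alike in clusters 1 and 2, and higher in clusters 3, 4 and 5, in both portions. In the 80% portion the median share was 9.13% (interval 9.05 to 9.21%) in cluster 0, 10.4% (10.3 to 10.6%) in cluster 1, 10.5% (10.4 to 10.6%) in cluster 2, 11.3% (11.1 to 11.5%) in cluster 3, 12.3% (12.1 to 12.5%) in cluster 4 and 12.8% (12.6 to 13.1%) in cluster 5. In the 20% portion, whose nuclei were given the cluster they resembled most, the medians were 8.89, 10.2, 10.3, 11.0, 11.95 and 12.99%. Clusters 1 and 2 did not differ beyond their intervals, and their order turned in the pooled share of UMIs (10.42 and 10.39%). All other neighbours in the order had separate intervals in the 80% portion. In the 20% portion the intervals of clusters 3, 4 and 5 overlapped in turn. The highest cluster median was 1.40 times the lowest, and without RPL7, which is described below, 1.35 times. RPL7 was at 6242 CPM in cluster 5 and 1613 CPM in cluster 4, whose pooled shares with RPL7 were 12.6% and 12.2%. With the RPL7 counts taken out, the pooled share of cluster 4 was slightly above that of cluster 5. Which of these 2 clusters had the higher median without RPL7 was not tested. MALAT1 and NEAT1, RNAs that stay in the nucleus, took a median of 3.89% in cluster 0, 3.56% in cluster 4 and 2.01 to 3.15% in the others. The clusters also differed in depth, with medians of 9140 to 17585 UMIs, and in called doublets, with 0.546% in cluster 1 and 12.8% in cluster 3. The part of these in the order was not tested.

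**Figure D1:**
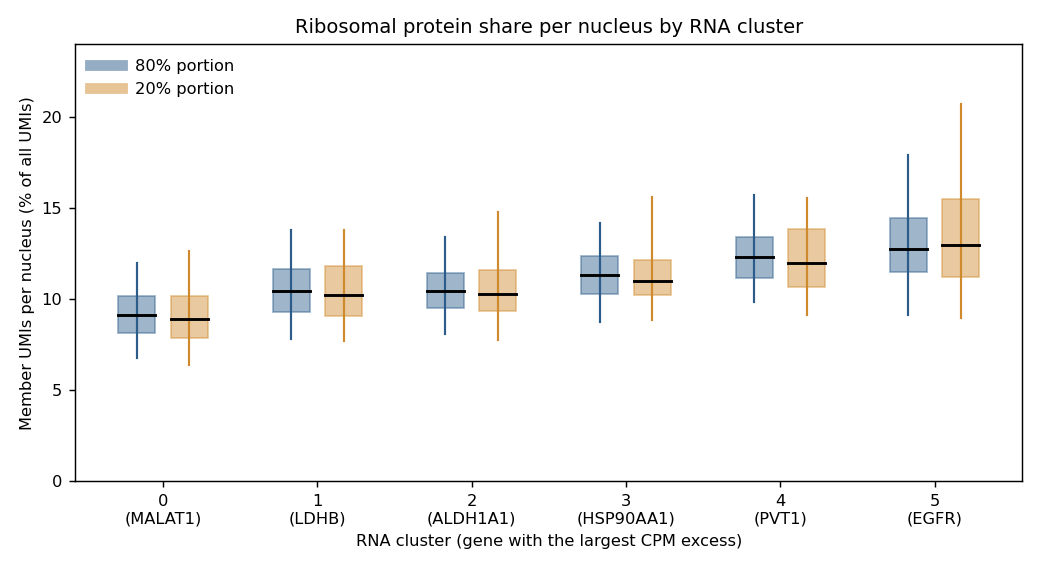
Share of UMIs on member genes per nucleus (vertical axis, % of all UMIs) in the 6 RNA clusters (horizontal axis) of the 80% (blue) and 20% (orange) portion. Black lines are medians over nuclei, boxes the middle quartiles and thin lines the 5th to 95th percentile. The medians of the 80% portion run from 9.13% in cluster 0 to 12.8% in cluster 5.

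Both subunits followed this order only roughly. The large subunit took 1.24 times the UMIs of the small subunit in cluster 2, 1.29 times in cluster 0, 1.31 times in cluster 4, 1.35 times in cluster 1, 1.44 times in cluster 3 and 1.51 times in cluster 5. The ratios in the 20% portion were 1.25, 1.30, 1.31, 1.34, 1.44 and 1.52 in the same order of clusters. RPL7, a large subunit member at 6242 CPM in cluster 5, is part of these ratios, which were not recomputed without it. Small subunit members had a median share of 5.35% of UMIs in cluster 4 and 5.11% in cluster 5, the reverse of the order over all members. A separate list of 14 genes, called translation factors here, holds elongation and initiation factors and also PABPC1, TPT1, NACA and BTF3. These genes stayed at a median of 1.06 to 1.28% in every cluster, highest in cluster 1 and lowest in cluster 2.

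Single members differed less between clusters than other genes did, but some differed by over 3-fold. Each member's CPM in a cluster was set against the mean of the other 5 clusters, and a ratio of 1.5 or more either way was counted. Of 468 comparisons, 55 passed in 31 members, and 47 members passed in no cluster. All 55 had the same direction in the 20% portion, and 45 passed there too. The ratio of the highest to the lowest cluster had a median of 1.69 over the 78 members and 2.34 over all genes tested. Among genes of at least 300 CPM the medians were 1.66 for 73 members and 2.13 for 360 other genes.

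In cluster 0, 12 members were at least 1.5-fold lower, against 20.6% of all genes tested, and 0 were higher, against 12.9%. In cluster 1, 1 was higher (17.4% of all genes) and 6 were lower (26.3%). In cluster 2, 4 were higher (12.6%) and 4 lower (21.8%). In cluster 3, 3 were higher (10.7%) and 3 lower (16.0%). In cluster 4, 12 were higher (10.6%) and 3 lower (18.1%). In cluster 5, 6 were higher (10.2%) and 1 was lower (22.0%). As shares of 78, members called lower fell below the share of all genes called lower in every cluster, and members called higher passed the share of all genes only in cluster 4. Relative to the median member of each cluster, 38 comparisons in 22 members passed 1.5-fold. The members higher and lower on that scale were 0 and 4 in cluster 0 (24.1% and 13.4% of all genes), 2 and 6 in cluster 1 (19.6% and 24.3%), and 5 and 3 in cluster 2 (17.2% and 16.5%). They were 3 and 3 in cluster 3 (10.7% and 16.1%), 1 and 5 in cluster 4 (6.07% and 27.0%), and 5 and 1 in cluster 5 (7.77% and 28.2%). In cluster 4 the median member ratio was 1.15, and of its 12 higher members no more than 1 was also 1.5-fold above that median.

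**Figure D2:**
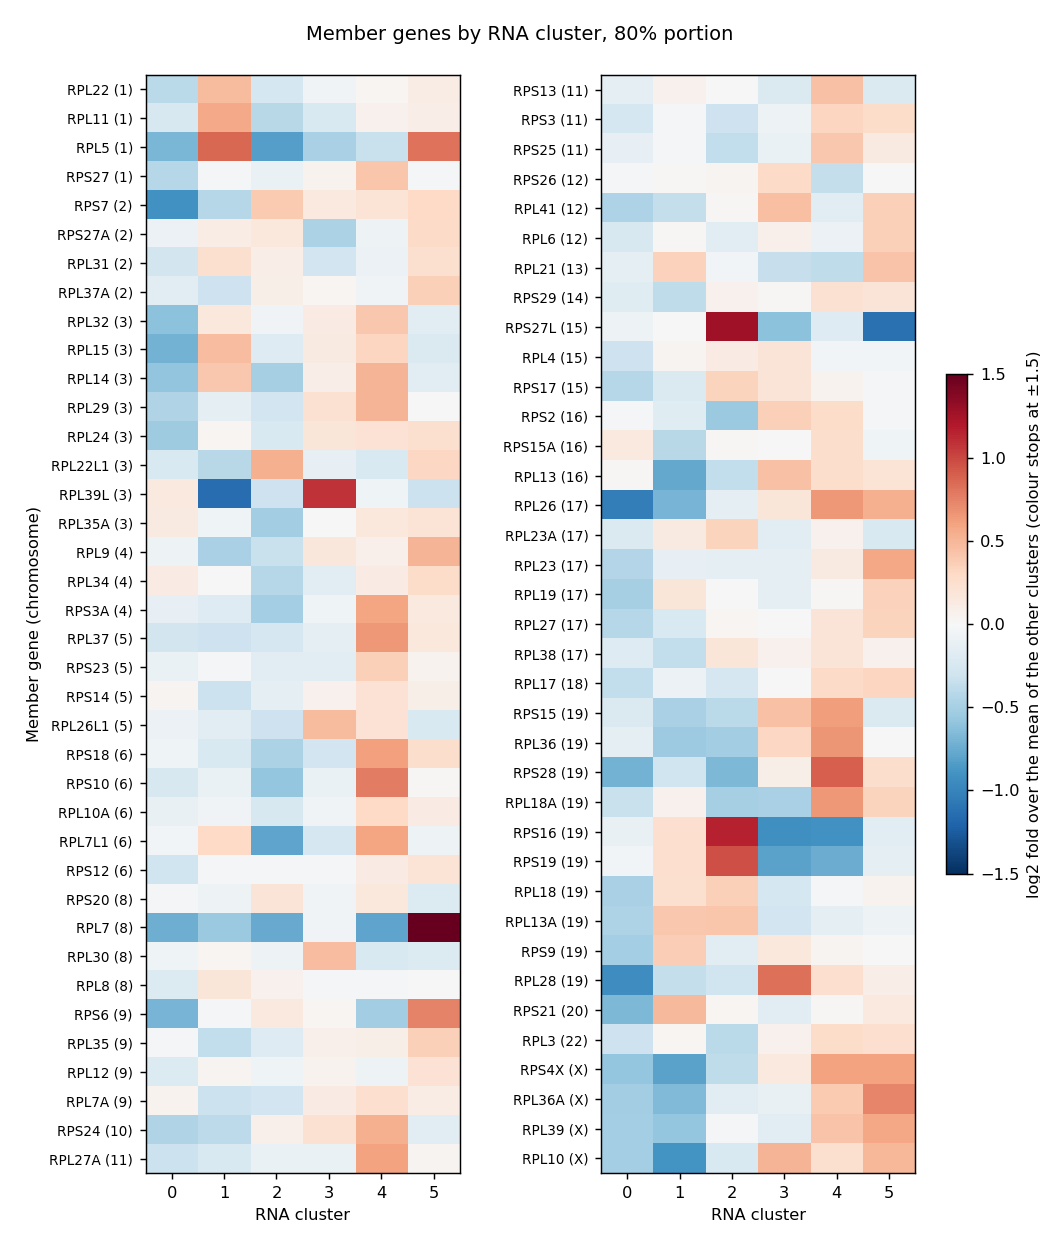
Log2 of each member's CPM in a cluster over the mean of the other 5 clusters, for the members tested that are named here (rows, with the chromosome in brackets, in genome order) and 6 RNA clusters (columns) of the 80% portion. Red is higher and blue is lower, and the colour stops at a log2 ratio of 1.5 either way. The strongest red cell is RPL7 in cluster 5, at 3.35-fold, and most of the rows are blue in cluster 0.

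Among large subunit members other than the paralogs, RPL7, RPL28, RPL26 and RPL5 had the widest ranges over clusters. RPL7, an RNA-binding protein of the large subunit, was at 1677, 1862, 1652, 2516, 1613 and 6242 CPM in clusters 0 to 5 and at 1480.3, 1653, 1437, 2318, 1467 and 5261 CPM in the 20% portion. Cluster 5 stood far above the other clusters, which lay within 1613 and 2516 CPM. Its ratio there was 3.35 (30001 UMIs, 95% Poisson interval of the level 6171.5 to 6313 CPM) and 3.15 in the 20% portion. The other members on chromosome 8 had no such excess, and in cluster 5 RPS20, RPL30 and RPL8 had ratios of 0.864, 0.866 and 1.00.

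RPL5, which with RPL11 and the 5S ribosomal RNA can bind MDM2, was at 1136, 2729, 1039.5, 1282, 1406 and 2674 CPM. It was thus 1.81-fold higher in cluster 1 and 1.76-fold higher in cluster 5, and the remaining clusters were at 0.563 to 0.793 of the mean of the others. RPL11, its partner, was highest in cluster 1 as well, at 1838 CPM against 1051 to 1419.6 CPM (ratio 1.48). RPL28 was at 1055, 1504, 1555, 2922, 2143 and 1968 CPM, 1.78-fold higher in cluster 3 and at 0.523 of the others in cluster 0. RPL26, whose product can bind the p53 mRNA, was at 896, 1104, 1553, 1857, 2402 and 2261 CPM, lowest in cluster 0 (0.488) and highest in cluster 4 (1.57). RPL36 reached 1025 CPM in cluster 4 against 513 to 846 CPM (1.58-fold). RPL35A, at 1400.2 CPM in cluster 0 (1.10-fold), was one of only 7 members above 1 in cluster 0.

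Among small subunit members RPS16 and RPS19 had the same order. RPS16 was at 1739.5, 2144, 3422, 1059, 1073 and 1681 CPM in clusters 0 to 5, and RPS19, whose loss causes Diamond-Blackfan anaemia, at 1776, 2092, 3054, 1117, 1161 and 1682 CPM. Both were highest in cluster 2 (2.22-fold and 1.95-fold) and lowest in clusters 3 (0.526 and 0.572) and 4 (0.534 and 0.597). The same ratios in the 20% portion were 2.18 and 1.93 in cluster 2. The genes lie on chromosome 19, at the starts shown above. RPS28 was at 1029.6, 1324, 1057, 1661, 2573 and 1835 CPM, 1.86-fold higher in cluster 4.

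RPS10, which is ubiquitinated on stalled ribosomes, was at 359.8, 392, 293, 392, 631 and 418 CPM, 1.70-fold higher in cluster 4. Its level over all nuclei differed between the portions (378 CPM in the 80% and 619 CPM in the 20% portion), so its levels are comparable only within a portion. The same holds for RPS29 (1140 and 1595 CPM) and, to a lesser extent, for RPS27L (191 and 161 CPM). RPS15A, at 1612 CPM in cluster 0 (1.11-fold), ranged from 1158 to 1714 CPM.

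The 4 members on the X chromosome, RPL10, RPL36A, RPL39 and RPS4X, had similar ratios in most clusters but not in cluster 3. RPL10 was at 2394, 1893, 2840.0, 4306, 3727 and 4295 CPM and RPS4X at 1389.7, 1214, 1570.2, 2135, 2751 and 2749 CPM. RPL36A ranged from 792 to 1761 CPM and RPL39 from 1311 to 2551 CPM. All 4 were lowest in cluster 1, at 0.539 to 0.669 of the other clusters, and were at 1.42 to 1.66 in cluster 5. In cluster 0 they were at 0.667 to 0.702, below the cluster's median member ratio of 0.832. In cluster 3 they ran from 0.900 for RPL39 to 1.42 for RPL10.

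The paralogs were the least counted members. RPS27L and RPL39L were among the members that differed most between clusters, and RPL22L1 and RPL26L1 were not. RPS27L, a p53-inducible paralog of RPS27, was at 171, 179, 351, 124, 161 and 90.5 CPM, 2.42-fold higher in cluster 2 and at 0.459 of the others in cluster 5, and at 295 and 61.9 CPM in these clusters of the 20% portion. RPL39L, a paralog of RPL39 known from testis, was at 27.8, 12.8, 21.4, 45.8, 24.7 and 21.2 CPM. It was 2.12-fold higher in cluster 3 (416 UMIs, interval 41.5 to 50.4 CPM) and at 0.452 in cluster 1 (244 UMIs, 11.2 to 14.5 CPM). RPL7L1, which takes part in ribosome assembly, was at 142, 172, 90.2, 125, 202 and 138 CPM. It was lowest in cluster 2 (0.579). Its paralog RPL7 had a ratio of 0.594 there, against a mean that holds its 6242 CPM in cluster 5. The RPL7 level in cluster 2 was near those of clusters 0, 1 and 4. In cluster 5, where RPL7 was at its highest, RPL7L1 was at 0.946. RPL22L1 was at 202, 181, 311, 216, 202 and 276 CPM and its paralog RPL22 at 535, 884, 579, 656, 689 and 721 CPM. The cluster with the most RPL22, cluster 1, was the one with the least RPL22L1 (1.39 and 0.751). RPL26L1 ranged from 101 to 158 CPM, the narrowest range of the 5 paralogs compared. Of the 42 UMIs of RPL3L, 25 were in cluster 5.

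The 6 ribosomal proteins under other names took a median of 1.01% of UMIs per nucleus, and with them the median share over all nuclei was 11.2% in place of 10.2%. RPLP1, an acidic stalk protein of the large subunit, was at 6030.4 CPM in cluster 2 and 2959 CPM in cluster 0 (1.43-fold and 0.612). Its stalk partners RPLP0 and RPLP2 ranged from 0.761 to 1.14 and from 0.818 to 1.12. RPSA was at 1742 CPM in cluster 1 (1.49-fold) and at 787 CPM in cluster 0 (0.577), and FAU at 1674 CPM in cluster 1 (1.48-fold). RPLP1 and RPSA in cluster 0 were past 1.5-fold, both lower.

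Other gene lists of ribosome production gave these values. In cluster 0, where 20.6% of all genes and 12 of 78 members were lower, 6 of 8 snoRNA host genes were lower (median ratio 0.559) and 6 of 16 ribosome assembly genes (0.810). The host genes carry the small RNAs that guide modification of ribosomal RNA in their introns. In cluster 5, where 10.2% of all genes were higher, 3 of 8 host genes were higher and 1 was lower (1.26), and 2 of 16 assembly genes were higher (1.18). Of the 14 translation factors, 1 was lower in cluster 0 (0.989) and 0 passed in cluster 5 (1.00). Of 74 mitochondrial ribosomal proteins, 11 were lower and 1 was higher in cluster 0 (0.859). The medians over all genes tested were 0.962 in cluster 0 and 0.903 in cluster 5. The lists were chosen with results of these data in view and were not tested.

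Members with a high or low ratio in a cluster lay in regions whose ATAC counts were high or low there. This comparison was chosen after the members' values were seen. For each member the ATAC counts of all peaks within 2 Mb, without those at member starts, were scaled to the same total in each cluster and set against the other clusters in the same way. Over the 78 members, Pearson's r between the log2 ratios was 0.847, 0.729, 0.759, 0.708, 0.901 and 0.770 in clusters 0 to 5. Over the other 10503 genes tested, the median r of the 6 clusters was 0.365, and over other genes of at least 300 CPM it was 0.447, as against 0.765 for members. These correlations are descriptions: genes are not independent, 14 members have another member within 2 Mb, and the points of a cluster share its libraries.

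Around RPL7, 188 peaks had 3.86 times as many scaled ATAC counts in cluster 5 as in the others, and the median ratio of the 12 neighbouring genes tested was 3.31. In cluster 4 RPL7 was at 0.578 of the others, with a regional ratio of 0.335, and the high values of cluster 5 are part of both means. Around RPS16 the regional ratio was 2.55 in cluster 2, 0.516 in cluster 3 and 0.463 in cluster 4, and around RPS19 it was 2.31, 0.541 and 0.443. RPL5 had a regional ratio of 2.23 in cluster 1 and RPL26 one of 0.407 in cluster 0. RPL28 had a regional ratio of 1.87 in cluster 3 and of 0.486 in cluster 0. In all 55 comparisons past 1.5-fold, and in 334 of all 468, the RNA ratio lay on the same side of 1 as the regional ratio. The same count was not made over other genes. A single outlying cluster, such as cluster 5 for RPL7, lowers both ratios in the other clusters, so the comparisons are not independent.

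Some members departed from their region. RPL39L had regional ratios of 1.01 in cluster 3 and 0.998 in cluster 1, where its RNA ratios were 2.12 and 0.452. RPS27L had 1.76 in cluster 2 and 0.725 in cluster 5, where its RNA ratios were 2.42 and 0.459. RPL22L1 had a regional ratio of 0.669 in cluster 2 with an RNA ratio of 1.45. RPS26 in cluster 5 had a regional ratio of 1.92 with an RNA ratio of 0.999.

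**Figure D3:**
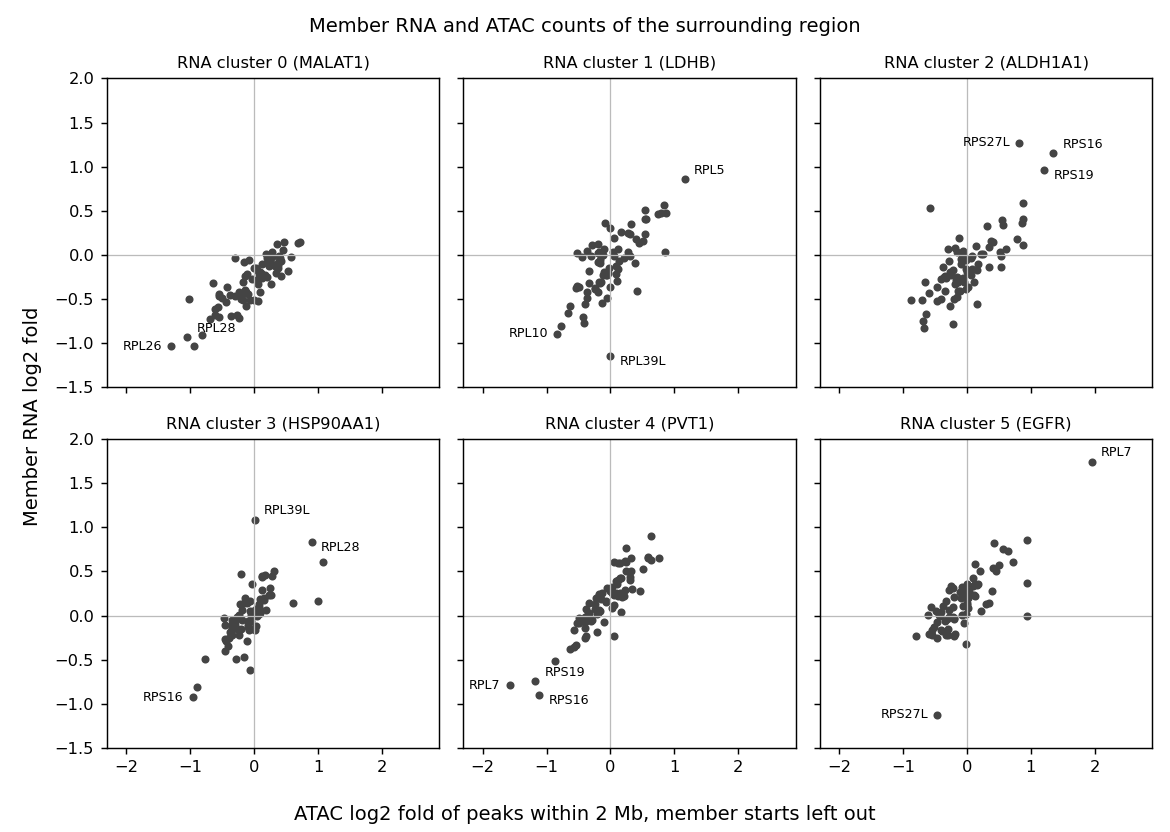
Log2 ratio of each member's RNA (vertical axis) against log2 ratio of the ATAC counts of peaks within 2 Mb, without those at member starts (horizontal axis), each over the mean of the other 5 clusters, for 78 members (points) in 6 RNA clusters (panels). In each panel 2 or 3 of the members whose RNA ratio is farthest from its median are named. RPL7 in cluster 5 lies at the upper right, at ratios of 3.35 and 3.86, and RPL39L in clusters 1 and 3 lies far from the other points near a regional ratio of 1.

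Open chromatin at the member starts themselves took 34.7 of every 10000 ATAC counts (221796 counts, binomial interval 34.6 to 34.8). A peak lay within 1000 bp of the start interval of 78 of 80 members, 90 peaks in all. The start interval is the stretch listed for a gene with the counts, and in RPL39L, RPL4, RPL36 and RPS29 it spans many kb. Peaks far from a single start can thus be included there, among them some of the 5 peaks of RPL39L and the 3 each of RPL36 and RPS29. By cluster the value was 32.6, 38.2, 41.9, 30.2, 30.5 and 32.5 per 10000 in clusters 0 to 5. Clusters 4 and 5, with the highest share of member RNA, were thus not those with the most ATAC counts at member starts. Within a cluster, member by member, the ratio of ATAC counts at the start and the RNA ratio had a Spearman rho of 0.645 to 0.817 over 78 members. At the RPL7 start there were 329 ATAC counts, scaled as CPM, in cluster 5 and 48.5 to 95.2 in the others. At the RPS16 start there were 98.6 in cluster 2 and 17.3 and 17.9 in clusters 3 and 4, and at the RPS19 start 186, 36.1 and 30.3.

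Nuclei with a higher mitochondrial share had slightly more ribosomal protein RNA. Across clusters the median mitochondrial share had the same order as the member share, 0.451, 0.610, 0.779, 0.911, 1.01 and 1.21% in clusters 0 to 5. Within clusters the relation was weak. Spearman's rho over the nuclei of a cluster was 0.070, 0.135, 0.262, -0.00456, -0.011 and 0.154 in the 80% portion, and 0.139 to 0.353 in the 20% portion. Both shares have the same UMI total below the line, and all nuclei of a portion share 1 library.

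The nuclei of each cluster were put into 5 equal bins of mitochondrial share, and the bins of all clusters were joined. The median member share was 9.85% (interval 9.72 to 10.0%) in the bottom bin, 10.0, 10.3 and 10.4% in the next, and 10.5% (10.3 to 10.6%) in the top bin, while the median mitochondrial share went from 0.444 to 0.894%. The difference between top and bottom was 0.628 percentage points, and it was 0.498 points without nuclei called doublets. With bins made inside bins of UMIs the medians were 9.88 and 10.5%. In the 20% portion the bottom and top bin of mitochondrial share were at 9.56 and 10.6%, and inside bins of UMIs at 9.67 and 10.4%. By cluster, the top bin was above the bottom bin in clusters 0, 1, 2 and 5 and below it in clusters 3 (11.1 against 11.2%) and 4 (11.8 against 12.3%). In the 20% portion it was above in 6 of 6. In the 80% portion the median UMIs (13331 and 13885.5), ATAC counts (8725 and 8885) and MALAT1 and NEAT1 share (2.96 and 3.04%) of the bottom and top bin were close. In the 20% portion the median ATAC counts went from 10142 to 8053 and the barcodes called in both portions from 24 to 44, and their part in its difference was not tested.

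Gene by gene, the step was small and mostly upward. In CPM, 66 of 78 members were higher in the top than in the bottom mitochondrial bin, as against 4357 of all 10582 genes tested. The median ratio was 1.04 over members and 0.980 over all genes. No member was 1.5-fold higher, against 0.501% of all genes, or 1.5-fold lower, against 0.208%, and none was 1.2-fold higher (3.89%) or lower (4.13%). The 5 highest ratios were those of RPL41 (1.13, from 2410 to 2713 CPM), RPL28 (1.12), RPS28 (1.11), RPS21 (1.11) and RPL39 (1.11). The 5 lowest were those of RPL7L1 (0.893, from 148 to 133 CPM), RPL14 (0.936), RPL5 (0.951), RPL4 (0.960) and RPL15 (0.961). Of the small subunit 30 of 31 members were above 1 and of the large subunit 36 of 47.

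Other gene lists gave these values. In the same bins, 7 of 14 translation factors were above 1 (median ratio 0.998) and 41 of 74 mitochondrial ribosomal proteins (1.01). Nuclear-coded respiratory chain genes resembled the members, with 67 of 78 above 1 (1.05), and 2 of 16 ribosome assembly genes were above 1 (0.921). The 8 snoRNA host genes had 7 above 1 (1.05). No gene of these lists passed 1.5-fold.

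Nuclei with more ATAC counts had a lower share of ribosomal protein RNA. From the bottom to the top of 5 ATAC bins made within clusters, the median share was 10.7% (interval 10.5 to 10.8%), 10.3, 10.3, 10.0 and 9.83% (9.67 to 9.91%), with medians of 3803 and 15930.5 ATAC counts in the outer bins. The difference was -0.858 percentage points. In the 20% portion the shares were 11.6% and 9.41%. The top bin was below the bottom bin in 6 of 6 clusters of both portions, and the widest gap in the 80% portion was that of cluster 5, with 14.3 and 11.96%. Spearman's rho over nuclei was -0.104 to -0.369 in the 6 clusters.

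Several other measures moved with the ATAC bins. RNA depth had a median of 11653 UMIs in the bottom and 19682.5 in the top bin, and in bins of UMIs the member share went from 10.9% to 9.80%. With ATAC bins made inside bins of UMIs, the shares of the outer bins were 10.6% (interval 10.4 to 10.7%) and 10.1% (9.95 to 10.2%), a difference of -0.499 points. Doublets were called for 2.89% of nuclei in the bottom and 22.4% in the top bin, and without them the difference was -0.914 points. MALAT1 and NEAT1 went from 2.57 to 3.30%. The part of these in the result was not tested. The mitochondrial share was 0.643 and 0.646%.

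**Figure D4:**
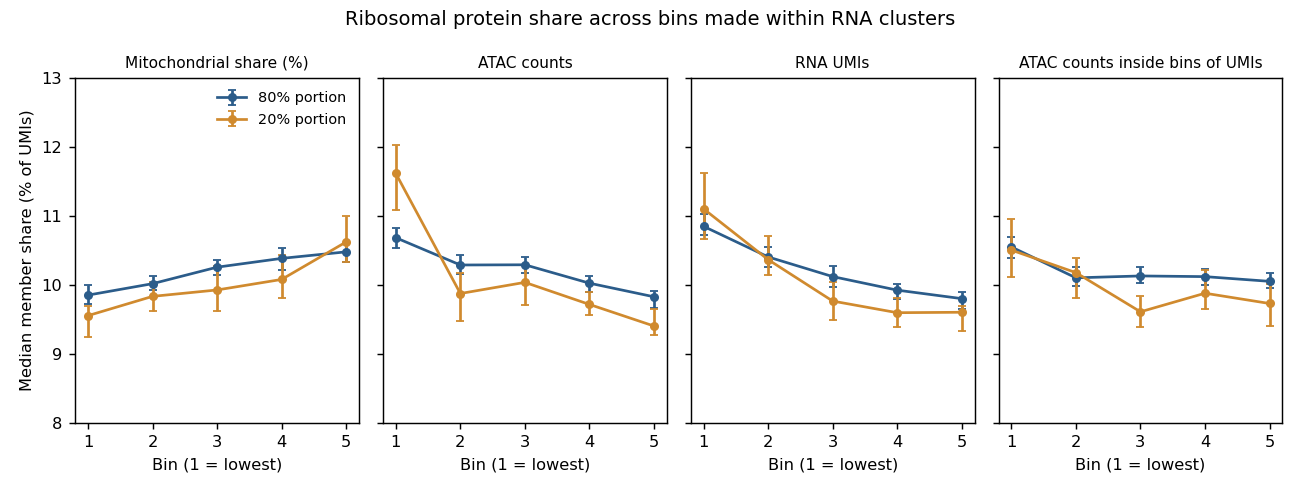
Median share of UMIs on member genes (vertical axis, %, drawn from 8 to 13%) over 5 bins made within RNA clusters, for bins of mitochondrial share, ATAC counts, RNA UMIs and ATAC counts inside bins of UMIs (panels, left to right), in the 80% (blue) and 20% (orange) portion. Bars are order-statistic intervals of the median. The share goes up with mitochondrial share, from 9.85 to 10.5%, and down with ATAC counts, from 10.7 to 9.83%.

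Nearly every member was lower in the top ATAC bin. In CPM, 2 of 78 members were higher in the top than in the bottom ATAC bin, as against 6336 of all 10579 genes tested. The median ratio was 0.916 over members and 1.02 over all genes. No member was 1.5-fold higher, against 0.548% of all genes, or 1.5-fold lower, against 0.0662%. The 2 members above 1 were RPL39L (1.09, interval 0.968 to 1.23) and RPL7L1 (1.05, 0.998 to 1.11), both paralogs with intervals that take in 1. The next was RPL41 (0.965). The lowest were RPS26 (0.798, from 576 to 460.2 CPM), RPS15 (0.856) and RPL35 (0.858). RPS26 was the only member past 1.2-fold in either direction, as against 6.30% of all genes higher and 1.44% lower. Other lists fell too. Above 1 were 0 of 6 ribosomal proteins under other names (median ratio 0.917), 0 of 8 glycolysis genes (0.941) and 1 of 14 translation factors (0.951). So were 7 of 78 nuclear-coded respiratory chain genes (0.935) and 10 of 74 mitochondrial ribosomal proteins (0.949). Ribosome assembly genes, with 6 of 16 above 1 (0.986), and snoRNA host genes, with 4 of 8 (0.996), were nearer to 1. The G2/M genes, which mark dividing cells, went the other way, with 18 of 18 above 1 (median ratio 1.42). At the member starts, ATAC counts per 10000 were 37.4 in the bottom and 34.6 in the top ATAC bin.

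**Figure D5:**
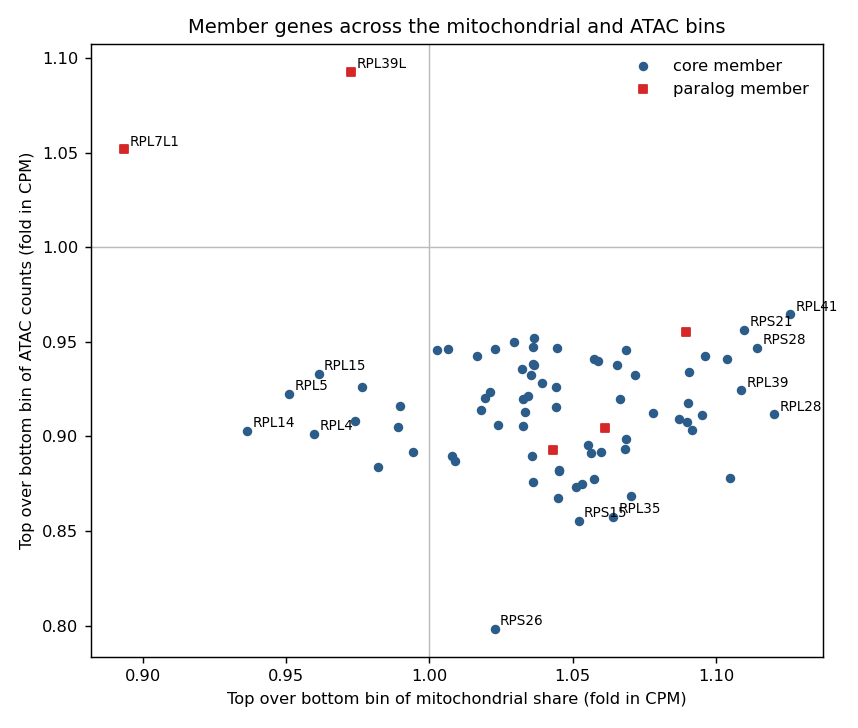
Ratio of CPM in the top over the bottom bin of mitochondrial share (horizontal axis) and of ATAC counts (vertical axis) for 78 members (points) of the 80% portion, with the paralogs as red squares. Most points lie to the right of 1 and below 1. RPL39L and RPL7L1 are the only points above 1 on the vertical axis, at 1.09 and 1.05.

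Per nucleus, the members varied as a block. The shares of the large and the small subunit had a Spearman rho of 0.861 to 0.919 over the nuclei of a cluster. The member share had a rho of 0.597 to 0.697 with the ribosomal proteins under other names, 0.625 to 0.765 with translation factors, 0.473 to 0.670 with nuclear-coded respiratory chain genes and 0.348 to 0.585 with mitochondrial ribosomal proteins. With MALAT1 and NEAT1 it was -0.295 to -0.625, and with ribosome assembly genes, which act in the nucleolus, 0.057 to 0.432. The relation with G2/M genes differed between clusters, from -0.114 in cluster 5 to 0.338 in cluster 1. All of these are parts of 1 UMI total per nucleus, and no test was made over nuclei.

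For barcodes called in both portions the member share differed between the sides. The droplets were split between the portions, so such a barcode is not shown to be 1 nucleus measured on both sides. These barcodes had a median of 7712 UMIs in the 80% and 5137 in the 20% portion, against 13401 and 10825 for the other barcodes. For these 159 barcodes the median share was 12.9% on the side with fewer ATAC counts and 8.59% on the side with more. It was higher on the side with fewer counts in 149 of 159, by a median of 4.67 percentage points. The mitochondrial share was higher on that side in 133 of 159 (medians 0.727 and 0.548%) and the translation factors in 127 of 159 (1.30 and 1.04%). MALAT1 and NEAT1 were higher there in only 12 of 159 (2.20 and 3.40%). The 159 barcodes were 12.4% of the 20% portion and 2.42% of the 80% portion. Of the nuclei in the bottom ATAC bin they were 85 of 259 in the 20% portion and 82 of 1313 in the 80% portion. Without them, the difference between the top and bottom ATAC bin of the 80% portion was -0.750 percentage points, in place of -0.858.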

How the data were processed

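The authors grew 5 lung adenocarcinoma lines apart, mixed their cells, isolated nuclei and made 10× Multiome libraries from 80% and 20% of the droplets. Per the labels, reads were processed with Cell Ranger ARC 2.0.0 against GRCh38, and the deposited matrices hold raw counts, that is RNA UMIs per gene and ATAC counts per peak and barcode. Other settings are not given in the sources used here. The long reads of the 20% portion and the genotype-based line calls were not used here. No column of values belonged to another series (0 columns left unused).

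The 80% nuclei, all barcodes of the matrix, were clustered in Seurat 5.3.0 (R 4.3.3; log-normalized counts, 2000 variable genes without 101 ribosomal protein and mitochondrial genes, 30 components, 20 neighbours, Louvain, resolution 0.07, seed 0). Nuclei of the 20% portion took the cluster with the highest correlation. Applied to the 80% nuclei, this gave back the same cluster for 98.1%. Scrublet (scanpy 1.11.5, expected rate 0.06) called 385 doublets (5.87%) in the 80% and 80 (6.22%) in the 20% portion, which were kept and left out in an alternative. The rest was done in Python 3.11.15 with numpy 2.4.6, scipy 1.17.1 and pandas 2.3.3.

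Shares are percent of a nucleus's UMIs, and medians have order-statistic intervals, UMI shares exact binomial and levels exact Poisson intervals at 95%. With 1 library per portion, the intervals of medians reflect the spread over its nuclei, and the others cover counting error only. Nuclei are not replicates, so none covers variation between libraries, and no p-value was computed. A gene was compared at a mean of at least 10 CPM, and 1.5-fold counted as a difference. Each cluster's nuclei were put into 5 bins of equal size.

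Genes were named by rule: the 5 members with the most UMIs, the 3 highest and 3 lowest ratios per cluster, the 5 of each for mitochondrial and 3 of each for ATAC bins, the paralogs and the 6 proteins under other names. Partner, chromosome 8, chromosome X, neighbourhood and portion examples (RPL11, RPL22, RPS20, RPL30, RPL8, RPL36A, RPL39, RPS29) were named after their values were seen. Some genes that the rule names are not reported here, and they remain in the counts. Members and lists were chosen with earlier results of these data known. The alternatives were filters, doublets, shared barcodes, member definitions, denominators, clusterings, bins, folds and windows.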

Additional observations from a re-analysis of the deposited data

How the results depend on the processing

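Each portion had 1 RNA and 1 ATAC library, so no test between libraries was made. RNA and ATAC were paired by barcode within a portion. The median member share of 10.2% was 10.1% without the paralogs, 11.2% with the 6 proteins under other names and 10.6% with mitochondrial genes and MALAT1 taken out of the denominator. The ratio of the highest to the lowest cluster median, 1.40, was 1.35 without RPL7, an alternative added after the data were seen. Cluster 0 was lowest and cluster 5 highest in 8 of 8 settings that gave a median for each of 6 clusters, among them the second random seed. The setting without RPL7 gave no medians by cluster and is not among them, so the rank of cluster 5 by median without RPL7 was not tested. By pooled share, cluster 4 was slightly above cluster 5 once the RPL7 counts were taken out. The difference over mitochondrial bins stayed between 0.498 and 0.732 percentage points. The difference over ATAC bins was -1.19 points with 10 bins and -0.499 points inside bins of UMIs, and negative in every setting run. Across clusters, 55 comparisons of members passed 1.5-fold and 8 passed 2-fold, and at 1.5-fold the count was 54 to 63 under the other settings. The shares of all genes at 1.5-fold are given above by cluster, and none is given at 2-fold or for the other settings. Over mitochondrial and over ATAC bins the count of 0 became 1 each with no filter, and over ATAC bins it was 1 at 1.2-fold. With no filter, 9.34% of all genes were higher and 8.52% lower over mitochondrial bins, and 9.01% and 7.70% over ATAC bins. At 1.2-fold over ATAC bins, 6.30% were higher and 1.44% lower. ATAC counts at member starts were 36.4 per 10000 with a window of 2000 bp in place of 34.7. Of 108 values recomputed, 84 moved by less than their interval or stayed within 1.5 times the count, and 24 moved further. Some of the 84 could not move, since a count of 0 at 1.5-fold is also 0 at 2-fold. With 5 clusters asked for, clusters 0, 1, 2 and 5 kept the same medians. The values of a second random seed repeat the main ones. A reversal was looked for only in the differences over mitochondrial and ATAC bins, and 0 reversed. With 327 nuclei in the smallest cluster, 55 in the 20% portion, small clusters have the widest intervals. The neighbourhood correlation had a median of 0.796 with 1 Mb and 0.741 with 5 Mb in place of 2 Mb.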
